A study of Mus musculus with 12 samples.

Results

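The 44 genes described here drive or mark the cell cycle and DNA replication, and were taken by symbol from a table of raw counts that covers 39179 genes. They fall into 16 genes of the step from G1 into S phase, 10 of DNA replication and 18 of G2 and mitosis (G2/M). All 44 had a row and passed the filter on low counts in each comparison. Their levels were measured in mouse pancreatic stellate cells (PSCs), the fibroblast-like cells of the pancreas, grown for 72 h in 3 ways with 4 libraries each. Mono-PSCs were grown alone, 2W-PSCs with pancreatic cancer cells (PCC), and 3W-PSCs with PCC and macrophages (MØ). In every culture the PSCs were the same SV40-immortalised line, a single clone labelled C57BL/6 that carried mCherry by lentivirus. SV40-immortalised cells usually hold the viral large T antigen, which binds p53 and the RB proteins, and this state was shared by all 3 groups. The PCC carried EGFP, p48-Cre, p53 fl/+ and ROSA26-LSL-rtTA-IRES-GFP, and the MØ were the RAW264.7 line with TagBFP. All cultures were kept in medium with little dialysed serum, and each flask held the same total number of cells, so that the presence of other cells and a lower number of PSCs per flask cannot be told apart. PSCs were sorted as cells positive for mCherry and negative for EGFP and TagBFP, a gate meant to leave out PCC and MØ. The methods give 4 cultures for each group but not how they were set up, so p-values measure only the spread between these libraries.

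Cells enter S phase when cyclin D with CDK4 or CDK6, and then cyclin E with CDK2, phosphorylate the RB protein and release E2F factors, which switch on the genes of DNA synthesis. Inhibitors of the p21 and p27 kind (here Cdkn1a, Cdkn1b) and of the INK4 kind (here Cdkn2a, Cdkn2b, Cdkn2c) hold these kinases back. Genes of G2 and mitosis are repressed in resting cells through the CHR element of their promoters and follow later in the cycle. Stellate cells are largely resting in the healthy pancreas and divide once activated.

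Library totals ranged from 4561817 to 8093368 counts, of which 33601 to 75691 fell on the 44 genes. Replicate 2 of 2W-PSCs stood apart. It had the lowest total and was the lowest or highest of all 12 libraries for 56.8% of the 44 genes and for 48.0% of 11776 genes. The calls in 3W-PSCs against 2W-PSCs are therefore also given without it. Of 14 fibroblast markers, 12 had at least 10 counts in every library. The summed level of 14 macrophage markers was 2.43 to 8.92 CPM (counts scaled to a common library total, with TMM factors) in mono-PSCs, 4.62 to 11.8 in 2W-PSCs, against 26.1 to 65.5 in 3W-PSCs, with 5, 6 and 1 of them at 0 throughout the group. That of 12 epithelial markers was 0.481 to 2.43 CPM, 74.3 to 145 CPM and 50.2 to 88.5 CPM, with 6, 6 and 2 at 0. Markers of fibroblasts and of other cell types thus moved with the culture, and their part in the results was not tested. The libraries come from 3′ ends, about 1 fragment a transcript, so that CPM can be compared between genes without a correction for length. Gene positions are those of GENCODE release M21 on GRCm38.

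Promoter features, which the choice of genes did not use, differed between the 3 groups. RefSeq promoter windows (GRCm38.p6, 250 bases before to 50 after the start of transcription) were given for 34 of the 44 genes. The CHR motif TTTGAA was searched together with the CCAAT box and an E2F motif (TTTCCCGC, TTTCGCGC, TTTGCCGC or TTTGGCGC), on both strands and with overlaps allowed. A CHR motif and a CCAAT box stood in 1 window (any window, where a gene had several) for 11 of 14 G2/M genes (78.6%), 1 of 9 replication genes and 0 of 11 G1/S genes, against 7.97% of 27025 genes. An E2F motif stood at 4 of 9 replication genes (44.4%), 2 of 11 G1/S genes and 1 of 14 G2/M genes, against 2.60% of all genes. A match is a run of letters and was not tested for binding. The stretches shown run up to the start of transcription, with matches in capitals.

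The first 4 promoters, chr10:69352913-69353052 (minus strand), chr19:37376322-37376381 (plus strand), chr4:118437344-118437413 (minus strand) and chr2:164769829-164769928 (plus strand), belong to G2/M genes and show the pairing of CCAAT box (CCAAT or ATTGG) and CHR motif (TTTGAA or TTCAAA) that most of the group has. The kinase gene Cdk1 also has an E2F motif.
Cdk1: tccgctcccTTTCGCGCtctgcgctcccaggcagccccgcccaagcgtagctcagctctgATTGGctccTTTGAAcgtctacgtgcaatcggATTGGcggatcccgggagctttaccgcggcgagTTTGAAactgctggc
Kif11: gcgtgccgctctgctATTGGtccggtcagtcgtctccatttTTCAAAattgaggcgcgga
Cdc20: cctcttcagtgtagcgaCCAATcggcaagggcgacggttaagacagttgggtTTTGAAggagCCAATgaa
Ube2c: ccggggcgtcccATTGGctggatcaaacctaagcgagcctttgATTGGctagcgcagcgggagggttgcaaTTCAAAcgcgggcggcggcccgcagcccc

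Mcm5 (chr8:75109349-75109508, plus strand) and Mcm6 (chr1:128359706-128359825, minus strand) carry overlapping E2F motifs and CCAAT boxes. They were picked for display after their calls in 3W-PSCs against mono-PSCs were seen, Mcm5 lower and Mcm6 higher. These calls held in 3 and 12 of 16 settings. A part of the motifs in them was not tested.
Mcm5: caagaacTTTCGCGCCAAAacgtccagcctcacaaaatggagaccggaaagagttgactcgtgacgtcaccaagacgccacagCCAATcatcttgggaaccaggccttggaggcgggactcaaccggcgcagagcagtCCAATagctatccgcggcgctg
Mcm6: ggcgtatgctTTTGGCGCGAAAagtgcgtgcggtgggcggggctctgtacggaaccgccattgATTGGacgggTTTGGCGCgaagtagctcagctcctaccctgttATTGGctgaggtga

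With MØ added to the co-culture, the genes that were called were all of the G1/S group. In 3W-PSCs against 2W-PSCs, 4 of the 44 genes were higher (Cdkn1a, Cdk6, Rb1 and Myc; 9.09%, where 5.73% of 11513 genes were called higher) and 2 were lower (Ccne2 and Cdkn1b; 4.55%, against 4.95%). Of the 16 G1/S genes, 25% were higher and 12.5% lower, and 0 of 10 replication and 0 of 18 G2/M genes were called by edgeR's quasi-likelihood test at a Benjamini-Hochberg adjusted p under 0.05. At an unadjusted p under 0.05 stood 11 G1/S, 4 replication and 2 G2/M genes. DESeq2 put Mcm4 (adjusted p = 0.0157) and Birc5 (0.0249) past the threshold as well. By edgeR the log2 fold change of Mcm4 was 0.99 (adjusted p = 0.0525), just outside it. Over the 44 genes the median log2 fold change came to -0.051, and over all genes tested to 0.0025. The groups were not tested against other genes, and 6 calls are few.

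These counts depended on single libraries. Without replicate 2 of 2W-PSCs all 6 calls held. The log2 fold changes were then 1.25 for Cdkn1a (adjusted p = 5.8e-05), 0.93 for Cdk6 (0.00516) and 0.99 for Rb1 (0.0177). Those of Myc, Ccne2 and Cdkn1b were 1.69 (0.0127), -0.69 (0.0203) and -0.87 (0.00072). The number of genes called higher was 1 without replicate 2 of 3W-PSCs, 2 without replicate 1, 3 or 4 of 3W-PSCs or replicate 1 or 4 of 2W-PSCs, and 7 without replicate 3 of 2W-PSCs. The number called lower was 4 without replicate 2 of 2W-PSCs, when Birc5 and Ccnb2 were added, 1 without its replicate 1, and 0 without its replicate 4 or any one library of 3W-PSCs.

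Against mono-PSCs, 3W-PSCs had 9 of the 44 genes higher (20.5%, where 13.4% of 11551 genes were called higher) and 7 lower (15.9%, against 13.0%). By group, 5 G1/S genes were higher and 5 lower, 3 replication genes were higher and 1 lower, and 1 G2/M gene was higher and 1 lower. The median of the log2 fold changes came to -0.11 over the 44 genes and 0.012 over all genes. All 6 genes called against 2W-PSCs had the same call here, but both comparisons use the same 4 libraries of 3W-PSCs.

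Between the culture with PCC alone and mono-culture no gene of the 44 was called. In 2W-PSCs against mono-PSCs edgeR called 0 of 44 genes in either direction, where 0.839% of 11199 genes were called higher and 0.152% lower. Only Ccnd1 had an unadjusted p under 0.05, and DESeq2 called it (adjusted p = 0.0456). The 95% interval of the log2 fold change lay within -1 to 1 for 32 of the 44 genes in this comparison, for 28 in 3W-PSCs against 2W-PSCs and for 31 in 3W-PSCs against mono-PSCs. For 11, 4 and 1 genes in the same order the interval held 0 and reached past -1 or 1, and for these a 2-fold change could not be told from none.

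**Figure D1:**
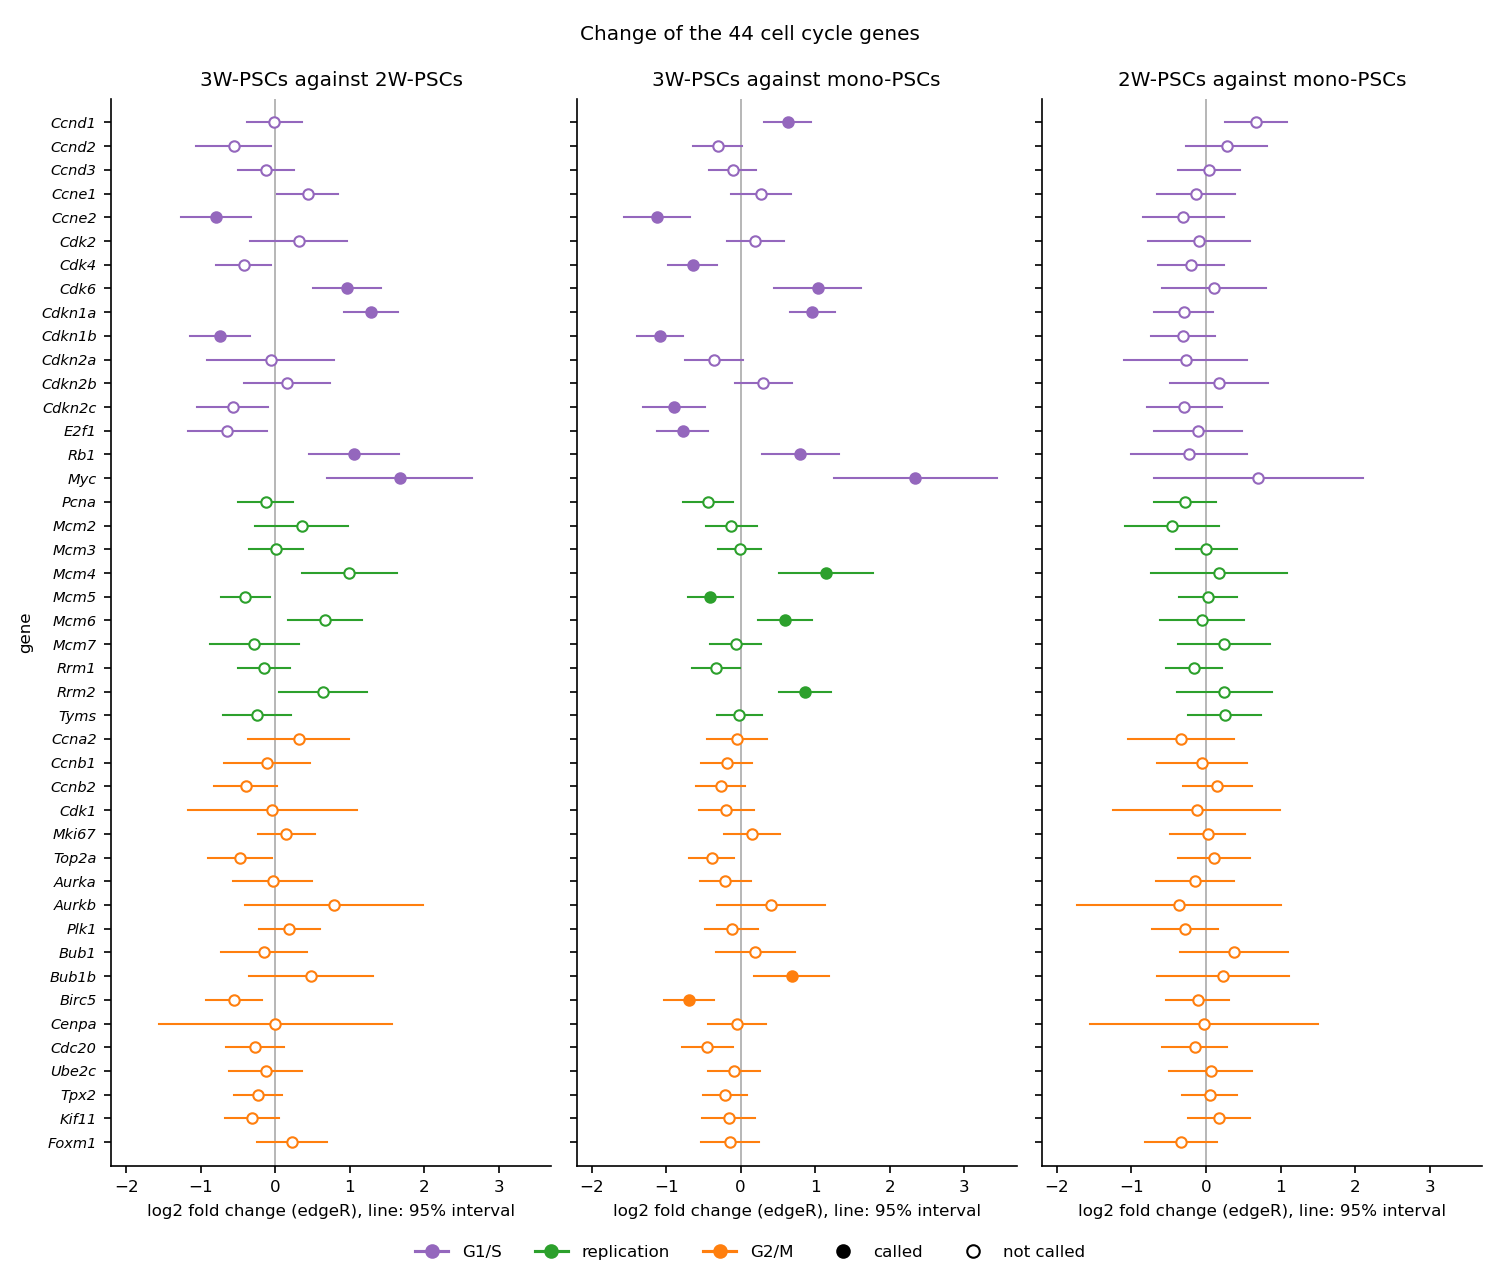
Log2 fold change (x axis, edgeR) of the 44 genes (y axis) in the 3 comparisons, with 95% intervals as lines, colours for the gene groups and filled points for called genes. Filled points are 6, 16 and 0 from left to right, and most of them are G1/S genes.

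The CDK inhibitors moved apart. Cdkn1a (chr17:29090976-29100727, plus strand) encodes p21, an inhibitor of cyclin-CDK complexes and a target of p53. Its levels were 572, 539.8, 527 and 558 CPM in mono-PSCs, 534, 410.2, 383 and 429.8 in 2W-PSCs and 1127, 949, 1126 and 1085 in 3W-PSCs. Each library of 3W-PSCs lay above all 8 others. It rose 2.44-fold against 2W-PSCs, a log2 fold change of 1.28 ± 0.17 (SE, adjusted p = 0.000883), and 1.95-fold against mono-PSCs, 0.96 ± 0.14 (SE, adjusted p = 9.59e-05). Among the 44 genes, it was the one called against 2W-PSCs in all 16 alternative settings. Its 2W value against mono was -0.30 (adjusted p = 0.887).

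Cdkn1b (chr6:134920401-134925513, plus strand) encodes p27, the inhibitor of cyclin E-CDK2 that is high in resting cells. It measured 116, 135, 134 and 112 CPM in mono-PSCs, 96.8, 71.96, 122 and 103 in 2W-PSCs and 53.8, 53.2, 63.3 and 64.7 in 3W-PSCs. All libraries of 3W-PSCs lay below all others. It fell against 2W-PSCs (-0.75 ± 0.18 SE, adjusted p = 0.0264) and against mono-PSCs (-1.08 ± 0.15 SE, adjusted p = 3.61e-05) on the log2 scale. The call against mono-PSCs held in all 16 settings. That against 2W-PSCs held in 10 of 16 and was lost without replicate 4 of 2W-PSCs or any one library of 3W-PSCs (adjusted p 0.0551 to 0.102).

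Cdkn2c (chr4:109660876-109667189, minus strand), which encodes the INK4 inhibitor p18, measured 41.4, 27.9, 34.2 and 40.4 CPM in mono-PSCs, 26.1, 38.8, 25.9 and 25.4 in 2W-PSCs and 17.3, 16.6, 22.8 and 21.4 in 3W-PSCs. It fell against mono-PSCs (-0.89 ± 0.20 SE, adjusted p = 0.00286) in all 16 settings. Against 2W-PSCs its groups did not overlap, but its log2 fold change of -0.57 (adjusted p = 0.117) was not called. The other INK4 genes among the 44, Cdkn2a and Cdkn2b, were not called in any comparison. Cdkn2a (chr4:89274471-89294653, minus strand) had the highest mean level of the 44 genes, 1562 CPM over 12 libraries, with 1477 to 2119 CPM in mono-PSCs and 1005 to 1707 in 3W-PSCs. In 2W-PSCs it measured 1829.8, 405, 1739 and 1918 CPM, replicate 2 being far below the others. The transcripts for p16 and p19Arf share their 3′ end, so the counts do not separate them. Cdkn2b, which encodes p15, measured 66.2 to 123, 52.8 to 156 and 112 to 131 CPM in mono-, 2W- and 3W-PSCs.

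Of the cyclins D, which start the phosphorylation of RB, Ccnd1 was higher in both co-cultures. Ccnd1 (chr7:144929931-144939925, minus strand) measured 291, 224, 253 and 259 CPM in mono-PSCs, 424, 317, 453 and 409 in 2W-PSCs and 355, 373, 428 and 436 in 3W-PSCs. Every co-culture library lay above every library of mono-PSCs. It rose in 3W-PSCs against mono-PSCs (0.63 ± 0.15 SE, adjusted p = 0.00457, all 16 settings). In 2W-PSCs the value was of like size, 0.66 ± 0.19 (SE, adjusted p = 0.189), but was not called with all libraries and was called without replicate 2, 0.75 (adjusted p = 0.0286). Between 3W-PSCs and 2W-PSCs its 95% interval was -0.38 to 0.35. Ccnd2, the most abundant cyclin here, measured 846 to 1152 CPM in mono-PSCs, 831 to 1755 in 2W-PSCs, but 693 to 909 in 3W-PSCs, with overlap in each comparison. Ccnd3 stayed between 135 and 218 CPM in all libraries. Neither was called.

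The partners of cyclin D, the kinases CDK4 and CDK6, were called in opposite directions. Cdk4 (chr10:127063534-127067920, plus strand) measured 352, 530.2, 486 and 472 CPM in mono-PSCs, 316, 419, 383 and 457 in 2W-PSCs and 268, 279.8, 342 and 289.8 in 3W-PSCs. It fell against mono-PSCs (-0.64 ± 0.16 SE, adjusted p = 0.00583, all 16 settings), and its value against 2W-PSCs was -0.42 (adjusted p = 0.139). Cdk6 (chr5:3341485-3531008, plus strand) measured 17.4, 12.3, 9.54 and 27.6 CPM in mono-PSCs, 19.8, 16.7, 15.4 and 19.5 in 2W-PSCs and 26.7, 36.1, 32.7 and 43.6 in 3W-PSCs.
It rose against 2W-PSCs (0.96 ± 0.21 SE, adjusted p = 0.0144) without overlap, and against mono-PSCs (1.03 ± 0.28 SE, adjusted p = 0.0102), where replicate 4 of mono-PSCs overlapped with 3W-PSCs. The call against 2W-PSCs was lost without replicate 2 or 4 of 3W-PSCs (adjusted p 0.0567 and 0.0571). Even where they were highest, Cdk6 levels stayed far below those of Cdk4 in each library.

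Cyclin E joins CDK2 at the entry into S phase. Ccne2 (chr4:11191351-11204779, plus strand) measured 79.3, 164, 96.5 and 116 CPM in mono-PSCs, 85.9, 109.5, 63.8 and 103 in 2W-PSCs and 58.5, 51.3, 38.4 and 61.5 in 3W-PSCs. Libraries of 3W-PSCs were below all others. It fell against 2W-PSCs (-0.79 ± 0.21 SE, adjusted p = 0.0386) and against mono-PSCs (-1.12 ± 0.21 SE, adjusted p = 0.000718, all 16 settings). The first call held in 9 of 16 settings and was lost without replicate 1 or 4 of 2W-PSCs or any one library of 3W-PSCs (adjusted p 0.0625 to 0.119). Its paralogue Ccne1 went the other way without a call, at 24.2 to 41.4, 24.1 to 35.7 and 32.8 to 41.3 CPM. Cdk2 measured 45.8 to 80.7, 24.6 to 77.8 and 60.3 to 79.3 CPM and was not called.

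Below the kinases, Rb1 and E2f1 differed in direction too. E2f1 (chr2:154559407-154569892, minus strand), an activating E2F factor that is itself an E2F target, measured 116, 166, 119 and 171 CPM in mono-PSCs, 102, 212, 98.6 and 111 in 2W-PSCs and 81.2, 85.7, 85.9 and 82.1 in 3W-PSCs. Levels in 3W-PSCs were the lowest and were close together. It fell against mono-PSCs (-0.78 ± 0.16 SE, adjusted p = 0.00158, all 16 settings). Against 2W-PSCs it was -0.64 (adjusted p = 0.114), and without replicate 2 of 2W-PSCs, which was the highest library, -0.31 (adjusted p = 0.108).

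Rb1 (chr14:73183673-73325822, minus strand), which encodes the RB protein, measured 24.9, 10.1, 14.4 and 15.1 CPM in mono-PSCs, 13.3, 11.5, 21.3 and 8.15 in 2W-PSCs and 23.9, 27.98, 31.4 and 29.96 in 3W-PSCs. Replicate 1 of mono-PSCs reached the range of 3W-PSCs. It rose against 2W-PSCs (1.05 ± 0.28 SE, adjusted p = 0.0348, 10 of 16 settings) and against mono-PSCs (0.80 ± 0.24 SE, adjusted p = 0.0220, 11 of 16). The first call was lost without replicate 1 or 4 of 2W-PSCs or any one library of 3W-PSCs (adjusted p 0.0675 to 0.0959). The second was lost without replicate 2, 3 or 4 of mono-PSCs or replicate 3 of 3W-PSCs (0.0514 to 0.0624).

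Myc (chr15:61985391-61990374, plus strand), a growth factor-induced transcription factor that drives entry into the cycle, was low in all cultures. It measured 14.6, 1.39, 2.52 and 3.37 CPM in mono-PSCs, 7.14, 9.33, 14.8 and 3.99 in 2W-PSCs and 27.6, 23.8, 47.7 and 12.7 in 3W-PSCs. Replicate 1 of mono-PSCs, replicate 3 of 2W-PSCs and replicate 4 of 3W-PSCs overlapped. It rose against 2W-PSCs (1.67 ± 0.44 SE, adjusted p = 0.0360) and against mono-PSCs (2.34 ± 0.52 SE, adjusted p = 0.00288), the largest change among the 44 genes in both comparisons. The first call held in 10 of 16 settings. It was lost without replicate 1 or 4 of 2W-PSCs or replicate 1, 2 or 3 of 3W-PSCs (adjusted p 0.0814 to 0.111). Against mono-PSCs it held in the 15 settings that kept the gene.

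In GENCODE release M21, 14 of the 44 genes have exons that overlap an exon of a gene on the opposite strand, 9 of them G1/S genes. For 5 of these 9 more than 10% of the sequence windows near the 3′ end, where the libraries read, are shared. Exons of Ccnd1 overlap those of LTO1, Ccne2 those of Ints8, Cdk4 those of Tspan31, Cdk6 those of Gm17590, and Rb1 those of Lpar6 and Rcbtb2. Between 14.0% (Cdk6) and 34.1% (Ccnd1) of the 75-base windows in their last 500 transcript bases also occur in the partner gene on one strand or the other. The strand setting of the counting is not stated, so reads of these genes and of their partners may not be told apart. Of the other 4, Ccnd3 shares 8.38% of its windows, with Bysl and Ccnd3-ps, and Ccnd2, Cdk2 and Cdkn1a, which overlaps AC167363.2, share 0%.

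**Figure D2:**
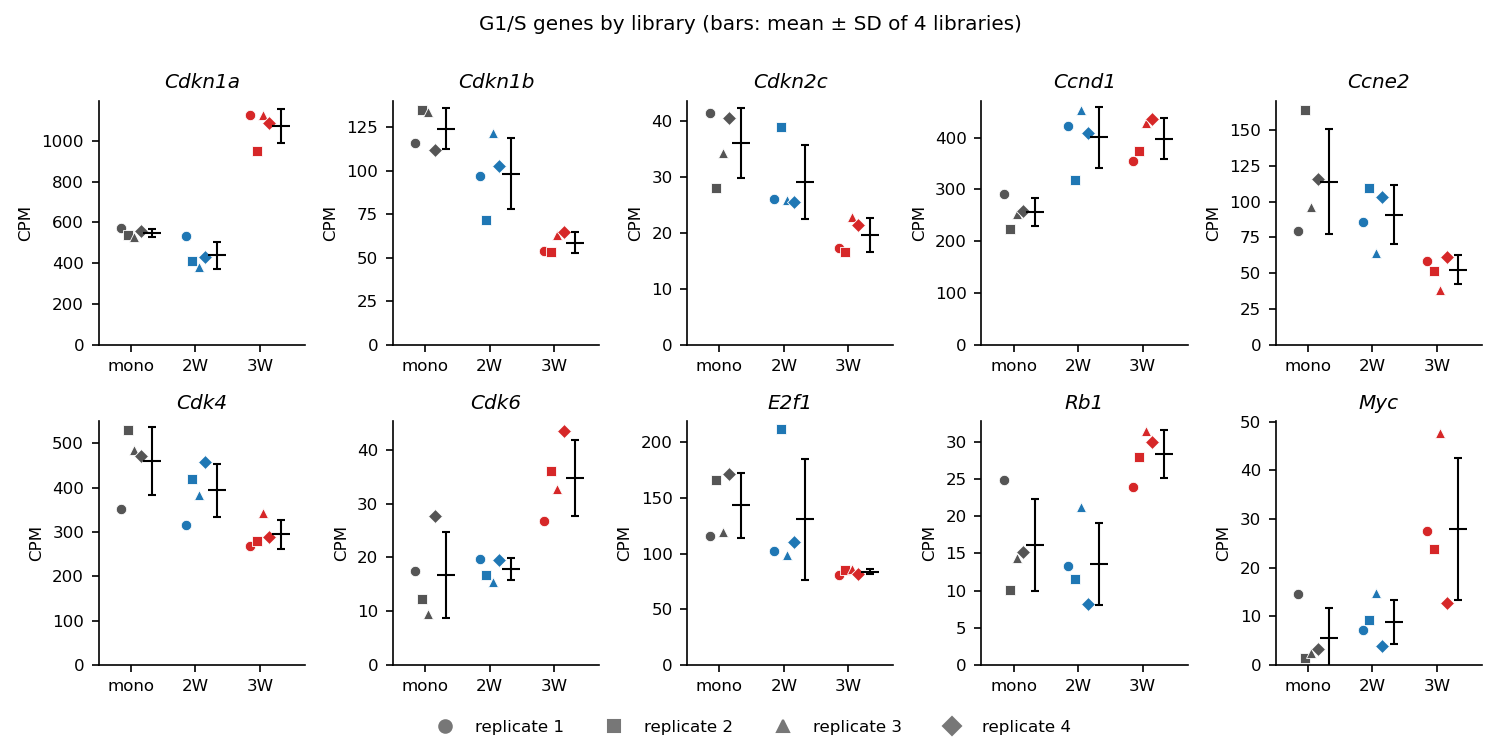
CPM (y axis, from 0) of 10 G1/S genes in each library of mono-, 2W- and 3W-PSCs (x axis), with symbols for replicate numbers and black bars for the mean ± SD of 4 libraries (cut at 0 for Myc in mono-PSCs). Cdkn1a, Cdk6, Rb1 and Myc are highest in 3W-PSCs on average and Cdkn1b, Cdkn2c, Ccne2, Cdk4 and E2f1 lowest. Ccnd1 lies above mono-PSCs in every co-culture library, but its change in 2W-PSCs was not called with all libraries.

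The summed levels of the 10 replication genes overlapped between the cultures. They were 2096 ± 93.8 CPM (SD, n = 4) in mono-PSCs, 2069.8 ± 217 in 2W-PSCs and 2192 ± 181 in 3W-PSCs. Single genes moved both ways against mono-PSCs. The 6 Mcm genes encode the subunits of 1 helicase ring, which unwinds DNA at the fork, and their changes were unequal.

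Mcm4 (chr16:15623897-15637400, minus strand) measured 238, 63.2, 89.6 and 87.6 CPM in mono-PSCs, 142, 86.2, 224 and 81.1 in 2W-PSCs and 250.4, 259.8, 307 and 248 in 3W-PSCs. In 3W-PSCs the libraries were alike and above all others, while replicate 1 of mono-PSCs and replicate 3 of 2W-PSCs came close. It rose against mono-PSCs (1.14 ± 0.30 SE, adjusted p = 0.00870, all 16 settings). Against 2W-PSCs its value of 0.99 ± 0.29 (SE, adjusted p = 0.0525) lay just outside the threshold and was called in 7 of 16 settings, among them the fit without replicate 2 of 2W-PSCs, 0.83 (adjusted p = 0.0281), and that without replicate 3 (adjusted p = 0.00512).

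Mcm6 (chr1:128331590-128359664, minus strand) measured 252, 149, 196 and 173 CPM in mono-PSCs, 189, 125, 268 and 149.8 in 2W-PSCs and 273, 279, 342 and 269 in 3W-PSCs, with 3W-PSCs above all other libraries. It rose against mono-PSCs (0.59 ± 0.17 SE, adjusted p = 0.0173, 12 of 16 settings, lost without replicate 2 or 4 of mono-PSCs or replicate 3 of 3W-PSCs, adjusted p 0.0555 to 0.0581). Against 2W-PSCs it was 0.67 (adjusted p = 0.0892), and without replicate 2 of 2W-PSCs 0.52 (adjusted p = 0.0618). It was called in 1 of 16 settings, without replicate 3 of 2W-PSCs (adjusted p = 0.0152).

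Mcm5 (chr8:75109569-75128439, plus strand) measured 126, 153, 169 and 159 CPM in mono-PSCs, 132, 165, 158 and 151 in 2W-PSCs and 122, 119.6, 101 and 118 in 3W-PSCs, with 3W-PSCs below all other libraries. It fell against mono-PSCs by a small step (-0.40 ± 0.15 SE, adjusted p = 0.0485), and 3 of 16 settings kept this call. It was lost without any one library other than replicate 1 of mono-PSCs (adjusted p 0.0794 to 0.123). The other subunits were not called. Mcm3 was the steadiest, with a 95% interval of -0.30 to 0.27 against mono-PSCs. Mcm2 measured 166 to 242, 66.8 to 189 and 164 to 230.5 CPM and Mcm7 396 to 562, 405 to 1004 and 423 to 589 CPM.

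The subunits of ribonucleotide reductase, which makes deoxynucleotides, did not move together either. Rrm2 (chr12:24708241-24714146, plus strand), the subunit whose level follows S phase, measured 35.1, 25.97, 36.5 and 33.4 CPM in mono-PSCs, 39.9, 19.4, 58.6 and 34.7 in 2W-PSCs and 63.6, 55.8, 58.3 and 61.5 in 3W-PSCs. It rose against mono-PSCs (0.86 ± 0.16 SE, adjusted p = 0.000829, all 16 settings) without overlap. Against 2W-PSCs it was 0.64 (adjusted p = 0.161), and without replicate 2 of 2W-PSCs 0.43 (adjusted p = 0.119). It was called in 1 of 16 settings, without replicate 3 of 2W-PSCs (adjusted p = 0.0331). Rrm1 was -0.33 (adjusted p = 0.119) against mono-PSCs and was called only without replicate 3 of 3W-PSCs (adjusted p = 0.0443). Pcna, the sliding clamp of the polymerases, lay just outside the threshold against mono-PSCs at -0.44 ± 0.16 (SE, adjusted p = 0.0520) and was called in 4 of 16 settings, among them those without replicate 1 of mono-PSCs (adjusted p = 0.0130) and without replicate 3 of 3W-PSCs (0.0268). Tyms, which makes dTMP, had 95% intervals of -0.32 to 0.28 against mono-PSCs and -0.71 to 0.21 against 2W-PSCs. Shares of 17.4% and 19.1% of the 3′ windows of Pcna and Mcm7 also occur in Pcna-ps2 and Gm5487, so their counts are less certain.

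**Figure D3:**
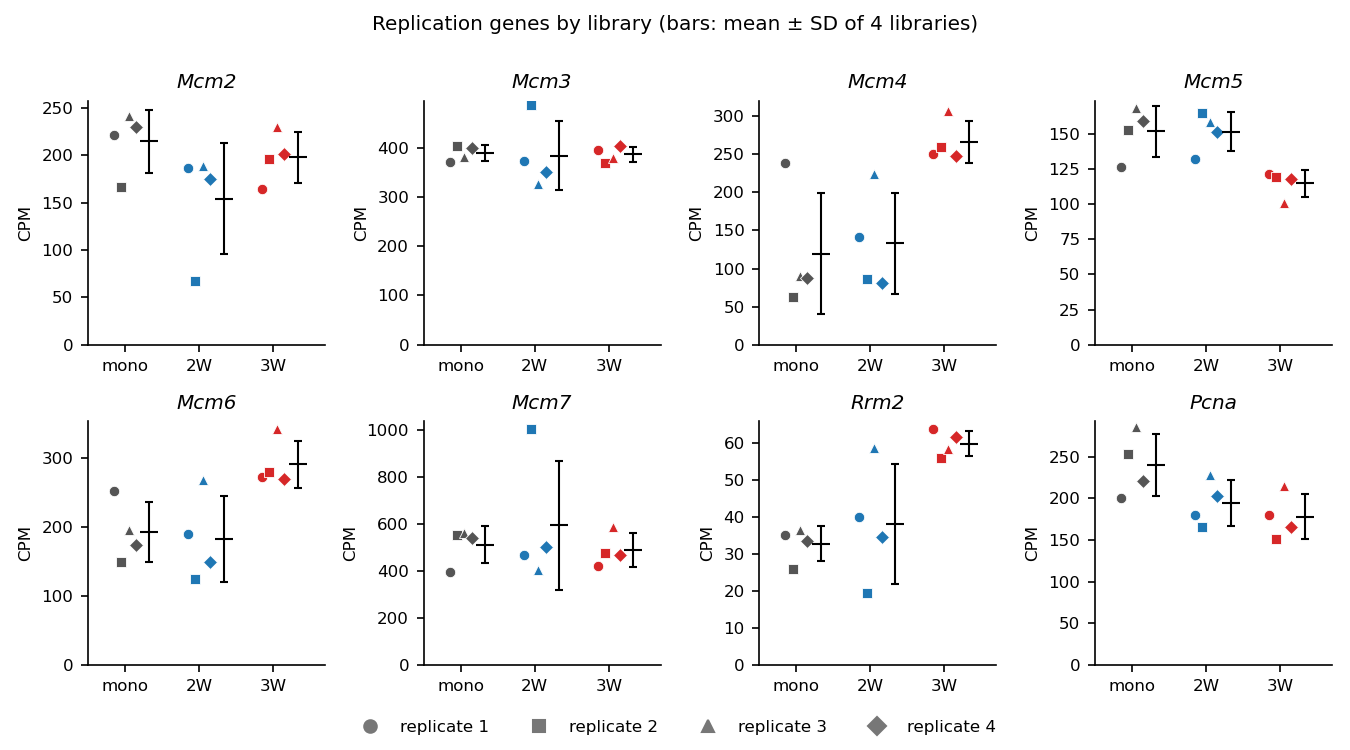
CPM (y axis, from 0) of 8 replication genes in each library (x axis, cultures), with symbols for replicate numbers and black bars for the mean ± SD of 4 libraries. Mcm4, Mcm6 and Rrm2 sit highest in 3W-PSCs on average and Mcm5 lowest, while Mcm2 and Mcm7 show replicate 2 of 2W-PSCs away from the rest.

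Of the 18 G2/M genes, 1 was called higher and 1 lower against mono-PSCs (5.56% each, where 13.4% and 13.0% of all genes were). The mean summed level of the 18 genes was lowest in 3W-PSCs. Their summed level was 2169.7 ± 117 CPM (2046.9 to 2315) in mono-PSCs, 2115 ± 269.99 (1819 to 2455) in 2W-PSCs, but 1821 ± 55.5 (1765 to 1895) in 3W-PSCs. The 3W libraries lay below all libraries of mono-PSCs and, without replicate 2, below those of 2W-PSCs (2008 to 2455). Of the 18 genes, 14 had a log2 fold change below 0 against mono-PSCs and 12 against 2W-PSCs, with medians of -0.15 and -0.075. Over all genes tested, 5676 of 11551 and 5734 of 11513 lay below 0. Top2a, the most abundant of them, made up part of this difference. Without it the sum was 1338 to 1634 CPM in mono-PSCs, 809.5 to 1909 with PCC and 1263 to 1341 with PCC and MØ. The ranges of mono-PSCs and 3W-PSCs then overlapped only at their ends (1338 and 1341 CPM). The means were 1483, 1388 and 1295 CPM, still lowest in 3W-PSCs. In bulk RNA, fewer cells in G2 or mitosis and less of these transcripts per cell cannot be told apart.

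Birc5 (chr11:117849251-117855743, plus strand), which encodes survivin of the chromosomal passenger complex, measured 157, 192, 223 and 169 CPM in mono-PSCs, 159, 141, 204 and 171 in 2W-PSCs and 131, 114, 93.7 and 121 in 3W-PSCs. The libraries of 3W-PSCs lay below all others. It fell against mono-PSCs (-0.69 ± 0.16 SE, adjusted p = 0.00361, all 16 settings). Against 2W-PSCs its -0.55 ± 0.17 (SE, adjusted p = 0.0627) was not called with all libraries, but was without replicate 2 of 2W-PSCs, -0.63 (adjusted p = 0.00961).

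Bub1b (chr2:118598211-118641591, plus strand), which encodes the checkpoint protein BubR1, measured 32, 14.5, 18.7 and 23.8 CPM in mono-PSCs, 37.8, 7.37, 30.5 and 26.7 in 2W-PSCs and 37.5, 30.8, 46.6 and 29.2 in 3W-PSCs. Replicate 1 of mono-PSCs overlapped with 3W-PSCs. It rose against mono-PSCs (0.68 ± 0.24 SE, adjusted p = 0.0423) in 9 of 16 settings. This call was lost without replicate 2, 3 or 4 of mono-PSCs or replicate 1 or 3 of 3W-PSCs (adjusted p 0.0641 to 0.141).

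Just outside the threshold against mono-PSCs stood Top2a, the topoisomerase that untangles chromosomes, at -0.39 ± 0.14 (SE, adjusted p = 0.0522), and Cdc20, the activator of the anaphase-promoting complex, at -0.45 ± 0.16 (SE, adjusted p = 0.0509). Top2a measured 599 to 757 CPM in mono-PSCs and 502 to 555 in 3W-PSCs, without overlap. Without replicate 1 of mono-PSCs both were called (adjusted p = 0.0111 and 0.00669), as was Aurkb, the kinase of the passenger complex, which was then higher (log2 fold change 0.98, adjusted p = 0.00940). Without replicate 3 of 3W-PSCs, Cdc20 was called too (adjusted p = 0.0243).

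The usual marker of dividing cells did not differ detectably. Mki67, which encodes Ki-67, measured 75.6, 60.3, 40.5 and 55.3 CPM in mono-PSCs, 67.4, 61.4, 41.9 and 61.8 in 2W-PSCs and 65.9, 65.2, 63.6 and 63.4 in 3W-PSCs. The 95% interval of its log2 fold change was -0.23 to 0.53 against mono-PSCs and -0.23 to 0.53 against 2W-PSCs. The kinase Cdk1 measured 422, 274, 480.1 and 298 CPM in mono-PSCs, 378, 45.4, 608 and 296 in 2W-PSCs and 318, 317, 351 and 308 in 3W-PSCs, and its interval against mono-PSCs was -0.57 to 0.18. Its cyclins were like it, with intervals against mono-PSCs of -0.45 to 0.36 for Ccna2, -0.53 to 0.16 for Ccnb1 and -0.60 to 0.059 for Ccnb2. The counts of Ccnb1 are less certain, as 24.0% of its 3′ windows also occur in Ccnb1-ps, Gm12856, Gm4870 or Gm8416. Against 2W-PSCs, Ccnb2 was called lower without replicate 2, -0.52 (adjusted p = 0.0310).

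Among the regulators of mitosis, the 95% intervals of Aurka, Plk1, Tpx2, Kif11 and Ube2c against mono-PSCs reached from -0.54 (Aurka) to 0.26 (Ube2c). Foxm1, the transcription factor of G2/M genes, had an interval of -0.53 to 0.25. The centromere histone gene Cenpa had -0.44 to 0.34 and the checkpoint kinase gene Bub1 -0.33 to 0.73. Aurkb was the least abundant of the 44 genes, with a mean of 10.7 CPM over 12 libraries.

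**Figure D4:**
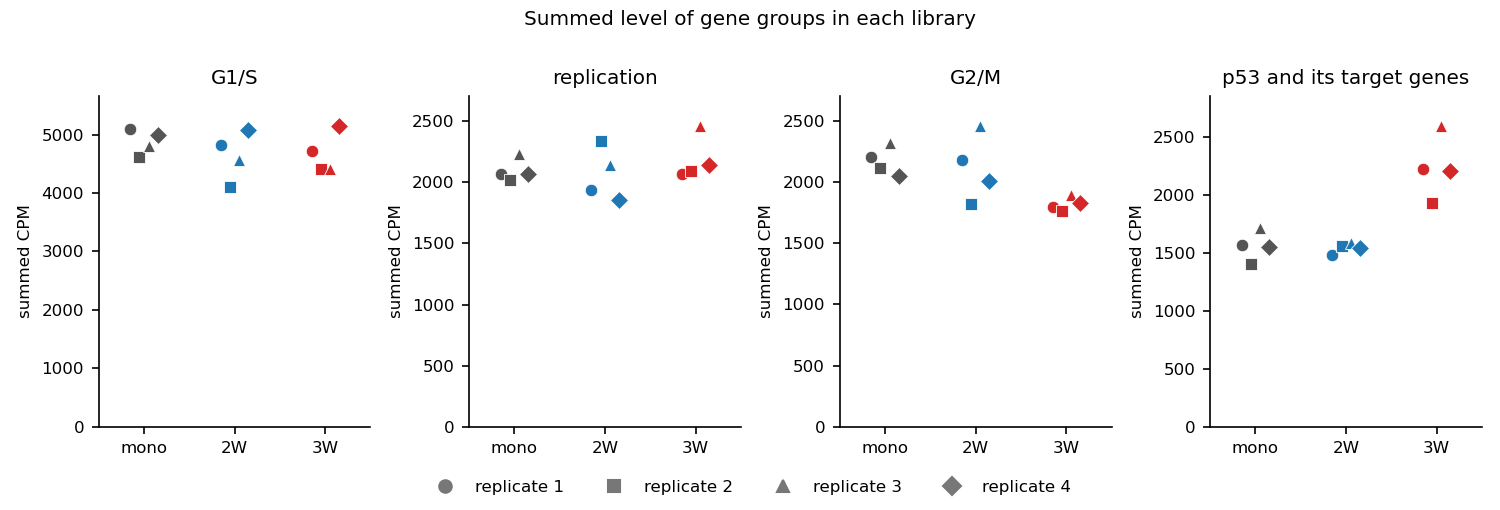
Summed CPM (y axis, from 0) of the 16 G1/S, 10 replication and 18 G2/M genes and of 24 genes of p53 and its targets in each library (x axis, cultures), with symbols for replicate numbers. The G2/M sum of 3W-PSCs (1765 to 1895 CPM) is below that of mono-PSCs (2046.9 to 2315 CPM). Without Top2a these ranges overlap at their ends. The p53 sum of 3W-PSCs is above both other cultures.

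Replicate 2 of 2W-PSCs was often at an end of its group. Among all 12 libraries it was lowest or highest for 56.8% of the 44 genes and 48.0% of 11776 genes. It lay below the other 3 libraries of 2W-PSCs for 14 of 18 G2/M genes, 5 of 10 replication genes and 6 of 16 G1/S genes, and above them for 2, 3 and 5. These counts within 2W-PSCs were not made over all genes, and the gene groups were not tested against each other. Cenpa measured 87.4, 1.23, 146 and 62.8 CPM over the 4 libraries, and Aurkb 9.81, 0.737, 15.4 and 5.43 CPM. Top2a went the other way, at 687, 1009, 546 and 666 CPM, as did Mcm7 at 468, 1004, 405 and 502 CPM. The genes thus did not share 1 direction in this library. In the comparisons it went with wide intervals, such as -1.56 to 1.56 for Cenpa in 3W-PSCs against 2W-PSCs. Leaving it out also moved log2 fold changes there, such as that of E2f1 from -0.64 to -0.31 and that of Mcm7 from -0.28 to 0.090.

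**Figure D5:**
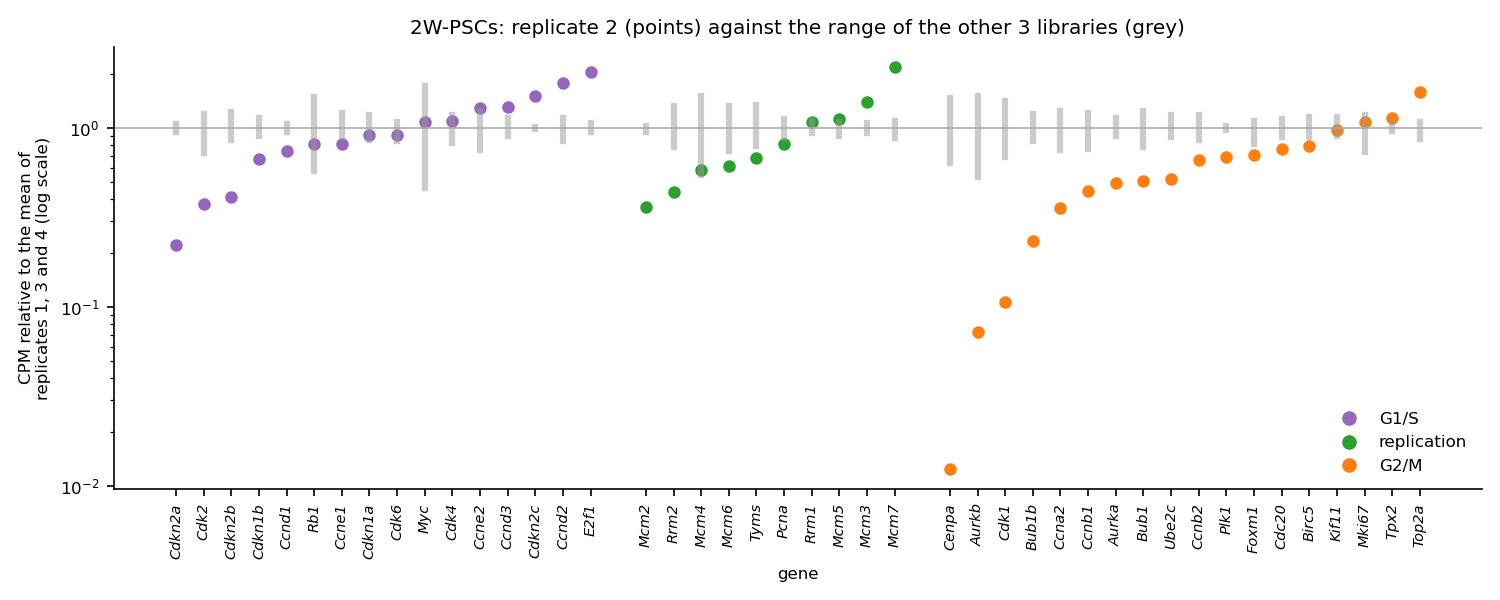
CPM of replicate 2 of 2W-PSCs divided by the mean of replicates 1, 3 and 4 (y axis, log scale) for each of the 44 genes (x axis), with colours for gene groups and grey bars for the range of the other 3 libraries. Points lie below the grey bars for 25 genes and above for 10, with Cenpa, Aurkb and Cdk1 lowest.

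Related genes from 6 lists were read beside the 44. For comparison, 5.73% of all genes tested were called higher and 4.95% lower in 3W-PSCs against 2W-PSCs. Against mono-PSCs these shares were 13.4% and 13.0%. Genes of p53 and its targets held 9 of the 12 list genes called higher in 3W-PSCs against 2W-PSCs. Of 24 tested, 9 were higher and 1 lower in 3W-PSCs against 2W-PSCs (37.5% and 4.17%), and 12 were higher and 0 lower against mono-PSCs (50%). The median log2 fold change of the list was 0.85 and 0.69, where that of all genes was 0.0025 and 0.012, and stayed 0.69 with Perp at its lower bound. Without replicate 2 of 2W-PSCs 12 were higher against 2W-PSCs, but 6 without its replicate 4, and 4, 4, 5 and 6 without replicate 1, 2, 3 or 4 of 3W-PSCs. Against mono-PSCs, 12 to 14 were higher with any one library left out. In 2W-PSCs against mono-PSCs 1 of 24, Perp, was called.

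Fas, the death receptor, measured 2.43, 4.16, 5.22 and 2.16 CPM in mono-PSCs, 4.06, 1.72, 8.10 and 7.83 in 2W-PSCs and 25.4, 25.1, 29.6 and 19.3 in 3W-PSCs, with 3W-PSCs above all others. It rose against 2W-PSCs (2.16, adjusted p = 0.00538) and mono-PSCs (2.85, adjusted p = 1.41e-06). Trp53, the gene of p53 itself, rose against 2W-PSCs (1.13, adjusted p = 0.0133), as did Ddit4l, an inhibitor of mTOR signalling (1.38, adjusted p = 0.00515). Zmat3, a p53 target that binds RNA, rose against mono-PSCs (1.24, adjusted p = 0.000442). Perp, which is also a gene of epithelial desmosomes, had 0 counts in all mono-PSCs and measured 18.4, 6.39, 8.41 and 19.2 CPM in 2W-PSCs and 4.78, 3.25, 3.94 and 6.36 in 3W-PSCs. Against 3 counts per library of mono-PSCs this was at least 23.0-fold higher in 2W-PSCs, and at least 8.08-fold for 3W-PSCs. It was lower in 3W-PSCs than in 2W-PSCs (-1.52, adjusted p = 0.0337). The epithelial markers moved in the same order, and their part in the values of Perp was not tested.

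The other replication genes that were called were lower. Of 42, 0 were higher and 5 lower against 2W-PSCs (11.9%, where 4.95% of all genes were lower). Against mono-PSCs 0 were higher and 9 lower (21.4%, where 13.0% of all genes were lower). The median log2 fold changes were -0.16 and -0.10. Without replicate 2 of 2W-PSCs, 2 were higher and 11 lower against 2W-PSCs, and without its replicate 4 or any one library of 3W-PSCs 1 or 2 were lower. Leaving out 1 library gave up to 4 higher and 6 to 13 lower against mono-PSCs, with 4 and 13 without replicate 1 of mono-PSCs, and 4 were lower with all 12 libraries in 1 fit. The clamp loader genes Rfc5 (-1.11, adjusted p = 0.0315, and -0.85, adjusted p = 0.00146) and Rfc4 (-0.77, adjusted p = 0.0195, and -0.93, adjusted p = 0.00204) fell in both comparisons. Gins3, of the replicative helicase complex, fell against 2W-PSCs (-0.87, adjusted p = 0.0354) and Rpa3, of the protein that binds single-stranded DNA, against mono-PSCs (-0.99, adjusted p = 0.0482).

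Of 53 other mitosis genes, 1 was higher and 5 lower against 2W-PSCs (1.89% and 9.43%, where all genes had 5.73% and 4.95%). Against mono-PSCs 3 were higher and 13 lower (5.66% and 24.5%, where all genes had 13.4% and 13.0%). The medians were -0.20 and -0.25. Without replicate 2 of 2W-PSCs, 3 were higher and 12 lower against 2W-PSCs, and without any other library of either culture 1 to 3 were lower. Without replicate 3 of 2W-PSCs 3 were higher. Against mono-PSCs, 6 were higher and 16 lower without replicate 1 of mono-PSCs, and 7 were lower without replicate 2 of 3W-PSCs or with all 12 libraries in 1 fit. The kinetochore genes Spc24 (-1.13, adjusted p = 0.0440, and -1.29, adjusted p = 8.08e-05), Ndc80 (-0.89, adjusted p = 0.0318) and Nuf2 (-0.92, adjusted p = 0.00373), the kinesin gene Kif22 (-0.91, adjusted p = 0.0277) and the histone gene H2afz (-1.08, adjusted p = 0.000290) fell. Those that rose were Psrc1 (1.71, adjusted p = 0.00314, and 1.90, adjusted p = 2.71e-07), Gtse1 (2.23, adjusted p = 0.00576) and Ckap2 (1.02, adjusted p = 0.000507). Psrc1 and Gtse1 act on microtubules and are also known as targets of p53.

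The remaining lists moved less or both ways. Of 18 genes of the E2F factors, the RB family and the DREAM complex, 0 were called against 2W-PSCs, where 3 had an unadjusted p under 0.05. Against mono-PSCs E2f4 was higher (1.02, adjusted p = 0.0199) and Tfdp2 (-0.68, adjusted p = 0.00477) and Rbbp4 (-0.60, adjusted p = 0.00666) were lower. These were 5.56% and 11.1% of the list, where 13.4% and 13.0% of all genes were higher and lower. Of 16 tested genes of quiescence and growth arrest, 2 (12.5%) were higher and 0 lower against 2W-PSCs, Foxo3 (1.09, adjusted p = 0.00407) and Btg1 (0.66, adjusted p = 0.0419). Against mono-PSCs 3 were higher (18.8%), these and Tob2 (0.91, adjusted p = 0.0113), and 6 lower (37.5%). The largest falls were those of Cdkn1c, which encodes the third inhibitor of the p21 kind, p57 (-2.44, adjusted p = 0.000979), of Klf4 (-1.66, adjusted p = 4.32e-07) and of Gas2 (-0.996, adjusted p = 0.00769). Cdkn1c measured 6.09, 7.33, 3.78 and 5.17 CPM in mono-PSCs and 1.59, 0.464, 1.27 and 0.778 in 3W-PSCs.

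Of 22 tested genes of the MYC network and ribosome biogenesis, 0 were higher and 1 lower against 2W-PSCs (4.55%, where all genes had 4.95%). Against mono-PSCs 4 were higher and 1 lower (18.2% and 4.55%, where all genes had 13.4% and 13.0%). The gene that fell in both was Mxd3 (-1.06, adjusted p = 0.0225, and -0.90, adjusted p = 0.0360), which encodes an antagonist of MYC. Those with the largest rise were Cad (0.77, adjusted p = 0.00787), of pyrimidine synthesis, Eif4a1 (0.73, adjusted p = 0.00215), a translation helicase, and Nolc1 (0.52, adjusted p = 0.0101), of the nucleolus. In 2W-PSCs against mono-PSCs, 0 genes of the 5 lists without Perp were called, with 3 of them at an unadjusted p under 0.05. Over the 6 lists, the genes called in 3W-PSCs against 2W-PSCs were 24 with all libraries, 50 without replicate 2 of 2W-PSCs, 11 without its replicate 4, and 9 to 11 without any one library of 3W-PSCs.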

How the data were processed

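RNA of sorted PSCs was measured in 12 libraries, 4 per culture. One further allele of the PCC is not reported here. Per the paper's methods and the labels, the authors made QuantSeq 3′ FWD libraries, checked reads with FastQC, aligned single reads to the mouse genome (GRCm38) by STAR, and used featureCounts for the gene counts. The deposited values are raw counts, whole numbers with unequal totals, although the methods speak of normalised reads. Molecular identifiers and the strand setting are not given in the sources used here, so PCR copies count as reads. At 4561817 to 8093368 counts a library, depth statements cover counting error only.

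Counts were scaled by TMM in edgeR 4.0.16 (R 4.3.3), filtered by filterByExpr, and compared in pairs of cultures (8 libraries a fit) with glmQLFit and glmQLFTest at a prior count of 0.125. P-values were adjusted by Benjamini-Hochberg over all genes tested, and genes under 0.05 were called. Levels are CPM with TMM over 12 libraries. The standard error is the log2 fold change divided by the root of F.

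The 44 genes and all lists were chosen with earlier results of these data known. All 44 genes are named. From each list, up to 3 called genes per direction and comparison are named, those that changed most, and of the cell type markers the summed levels. Alternatives were DESeq2's size factors, total count scaling, the Wald test of DESeq2 1.42.0, no filter or at least 10 counts throughout, 1 fit over all 12 libraries, the replicate block, leaving out single libraries, and leaving out mitochondrial rRNA genes together with the gene of highest count. The fit was tested on simulated data first. Exons that overlap other genes and 75-base windows shared with other genes were taken from GENCODE M21, and promoters from RefSeq (GRCm38.p6).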

Additional observations from a re-analysis of the deposited data

Results flagged for a closer look

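For each of the 44 genes and the 3 summed levels in each culture, the library at either end was compared with the other 3 by Dixon's criterion at the 95% level. Of 141 comparisons, 132 of single genes and 9 of sums, 16 passed, all of single genes, where chance gives about 7. The genes of 1 library are not independent of each other.

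In replicate 2 of 2W-PSCs 6 genes were far from the other libraries. Cdkn2a (405 CPM against 1739 to 1918), Mcm2 (66.8 against 175 to 189) and Plk1 (45.9 against 64.8 to 68.7) were low. Cdkn2c (38.8 against 25.4 to 26.1), E2f1 (212 against 98.6 to 111) and Mcm7 (1004 against 405 to 502) were high.

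In replicate 1 of mono-PSCs, Myc (14.6 CPM against 1.39 to 3.37), Mcm4 (238 against 63.2 to 89.6) and Aurkb (20.7 against 6.37 to 8.10) were high and Mcm7 (396 against 539 to 562) was low. In replicate 3 of 3W-PSCs, Mcm6 (342 CPM against 269 to 279), Rrm1 (162 against 119 to 123) and Ccna2 (64.5 against 48.2 to 50.3) were high.

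The other values were those of Ccnb1 in replicate 4 of 3W-PSCs (42.5 CPM against 38.3 to 38.8), Plk1 in replicate 3 of mono-PSCs (59.4 against 81.5 to 82.2) and Bub1 in replicate 2 of mono-PSCs (9.32 against 20.1 to 22.1).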

How the results depend on the processing

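Of the 44 genes, 39 to 44 kept their call in 3W-PSCs against 2W-PSCs under each alternative, 37 to 43 in 3W-PSCs against mono-PSCs and 43 or 44 in 2W-PSCs against mono-PSCs, and no called gene changed sign. In 3W-PSCs against 2W-PSCs, 1 to 7 genes were higher and 0 to 4 lower when 1 library was left out, against 4 and 2 with all, and 0 were lower under total count scaling. Genes of the 6 lists called were 9 to 50 when 1 library was left out and 37 with DESeq2, against 24. In 2W-PSCs against mono-PSCs, 1 of the 44 genes was higher with DESeq2 and 0 or 1 when 1 library was left out. Genes of the lists were then 1 to 3, with 0 at a minimum of 10 counts, 2 with all 12 libraries in 1 fit and 2 with DESeq2. The summed G2/M level of 3W-PSCs was 1887 CPM under total count scaling. Without Top2a, a setting chosen after the data were seen, the sums for mono-, 2W- and 3W-PSCs were 1483, 1388 and 1295 CPM. That scaling gave 774 genes higher and 405 lower of all genes in 3W-PSCs against 2W-PSCs, against 660 and 570, and moved the median log2 fold change of all genes to 0.099. Uncalled genes of the 44 changed sign more often, up to 14 of them without replicate 2 of 2W-PSCs. The causes were not tested.

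Counts over all genes moved as well. In 3W-PSCs against 2W-PSCs the 660 genes higher and 570 lower became 1098 and 1009 when replicate 2 of 2W-PSCs was left out, and 330 and 167 when replicate 2 of 3W-PSCs was. In 2W-PSCs against mono-PSCs the 94 higher and 17 lower became 149 and 28 without a filter, 45 and 12 at a minimum of 10 counts, 220 and 42 in 1 fit and 229 and 46 with DESeq2, and ranged from 55 and 6 without replicate 4 of mono-PSCs to 183 and 50 without replicate 2 of 2W-PSCs. With DESeq2, 911 were higher and 897 lower in 3W-PSCs against 2W-PSCs.

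Same-numbered libraries deviated together with correlations of -0.048 to 0.15 in 3W-PSCs and 2W-PSCs, 0.0026 to 0.11 in 3W-PSCs and mono-PSCs and 0.099 to 0.34 in 2W-PSCs and mono-PSCs. In each comparison at least 1 pair lay under 0.1, the limit set for every pair, and the numbers were not taken to pair the samples. For 2W-PSCs and mono-PSCs this rested on 1 pair, the other 3 being 0.21 to 0.34. With the replicate block, 5 of the 44 genes were higher and 2 lower in 3W-PSCs against 2W-PSCs (455 and 297 of all genes), 9 higher and 8 lower in 3W-PSCs against mono-PSCs, and 0 in 2W-PSCs against mono-PSCs.

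Depth limits the least abundant of the 44 genes. Aurkb had 3 counts in replicate 2 of 2W-PSCs, and Myc as few as 7 in mono-PSCs.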

Other observations

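Some of the genes varied widely within mono-PSCs and 2W-PSCs. The genes given here were chosen after their values were seen. Mcm4, Aurkb and the p53-linked Gtse1 were all highest within their culture in replicate 1 of mono-PSCs and replicate 3 of 2W-PSCs. Gtse1 measured 34.4, 2.97, 4.32 and 3.13 CPM in mono-PSCs, 11.8, 0.246, 27.8 and 3.83 in 2W-PSCs and 66.3, 51.1, 50.4 and 43.8 in 3W-PSCs. Aurkb measured 20.7, 6.54, 8.10 and 6.37, 9.81, 0.737, 15.4 and 5.43 and 12.8, 13.9, 17.9 and 10.9 CPM in the same order. In 3W-PSCs all 4 libraries were high for Mcm4 and Gtse1, and their levels were closer together than in the other cultures.

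The transcripts of the helicase subunits differed in level. The subunit proteins, which act in equal numbers, were not measured. Counts of Mcm7 are less certain, as 19.1% of its 3′ windows also occur in Gm5487. Mean levels over 12 libraries ran from 139.5 CPM for Mcm5 through 173 for Mcm4, 189 for Mcm2, 222 for Mcm6 and 386 for Mcm3 to 532 CPM for Mcm7. Ranges over the libraries overlapped between neighbours in this order, with 101 to 169 CPM for Mcm5 and 63.2 to 307 CPM for Mcm4.

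The p53 list held further genes that were called higher in 3W-PSCs against both other cultures, with values here as a description. They were Mdm2 (409.8, 287, 266 and 278 CPM in 3W-PSCs against 162, 186, 217 and 202 in mono-PSCs), which encodes the ligase that degrades p53, and Ccng1, Trp53inp1 and Eda2r. Ccng1 measured 221, 205, 242 and 234 CPM in 3W-PSCs and 103, 109, 149 and 104 in 2W-PSCs.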
